A study of Homo sapiens with 9 samples.

Results

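The effect of trichostatin A (TSA) alone was read from 4 of the 9 RNA arrays of the series, all of RKO cells, a colorectal cancer (CRC) line with heavy CpG island methylation. The arrays were chosen by their titles: 2 carried RNA of cells transfected with control siRNA (siCONT), left for 72 h and then given a mock treatment, and 2 carried RNA of siCONT cells given 300 nM TSA for 24 h at the same point. Each of the 4 arrays held 50599 probes read in 1 colour. The other arrays used here were 2 of UHRF1-depleted cells (siUHRF1) and 2 of UHRF1-depleted cells with TSA, which shared the estimate of spread and gave another set of arrays for the same drug. A single array of cells given 5-aza-dC stayed outside the comparison.

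TSA blocks the zinc-dependent histone deacetylases (HDACs), enzymes that take acetyl groups off the tails of histones and off other proteins. Acetylated tails bind DNA less tightly and are bound by proteins that promote transcription, so deacetylation is tied to closed chromatin and silent genes. Deacetylases also sit in repressor complexes and act on non-histone proteins such as tubulin and transcription factors, and transcript levels of many genes both rise and fall when they are inhibited.

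All values below are log2 signals relative to the 75th percentile of the same array, so a negative value is a probe dimmer than that percentile and not a decrease. The 75th percentile itself lay between 245 and 285 on the 4 arrays, and 43.7% to 45.5% of probes were well above background. The 2 siCONT arrays differed by a median of 0.070 on this log2 scale and the 2 TSA arrays by 0.076, whereas the siUHRF1 pair, which carried 2 different siRNAs, differed by 0.26. Nothing in the labels says that the arrays of a group came from separate cultures, so the p-values measure the spread between these arrays, which may be technical. Arrays without TSA lay in one row of the slide and arrays with TSA in the other, and row and treatment cannot be told apart. Of the markers of colorectal epithelium, KRT8, KRT18 and CDX2 were above background on all 4 arrays, while CDH1, KRT19, KRT20, VIL1 and CDH17 were on none and EPCAM on 1 siCONT array. Of 12 markers of fibroblasts, leukocytes and endothelium, COL1A1 and CDH5 were above background on both siCONT arrays.

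TSA changed many genes in both directions. Of 23730 probes tested, 2469 were called at an adjusted p below 0.05 in the limma fit to the 8 siRNA arrays, which is 10.4% of the probes. Counted with 1 probe for each of 13803 named genes, 1033 genes were higher with TSA (7.48%) and 586 were lower (4.25%). The median change was 0.67 among the genes that rose and -0.73 among those that fell, and 217 rises and 133 falls passed 2-fold. The median over all genes was 0.07, and scaling on the spike-in probes moved the median over all probes from 0.07 to -0.12. The called probes were higher in 62.1% of cases, in 33.7% of the 906 called under that scaling and in 49.0% of the 418 called after normexp background correction. The number of called probes rested on each of the 4 arrays: it was 196 without siCONT replicate 1, 286 without siCONT replicate 2, 187 without siCONT + TSA replicate 1 and 234 without siCONT + TSA replicate 2. In the fit to the 4 arrays alone, without the spread of the siUHRF1 pairs, 9929 probes were called, and with the siRNA of the siUHRF1 arrays as a term in the fit, an alternative chosen after seeing the data, 6756 were.

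**Figure D1:**
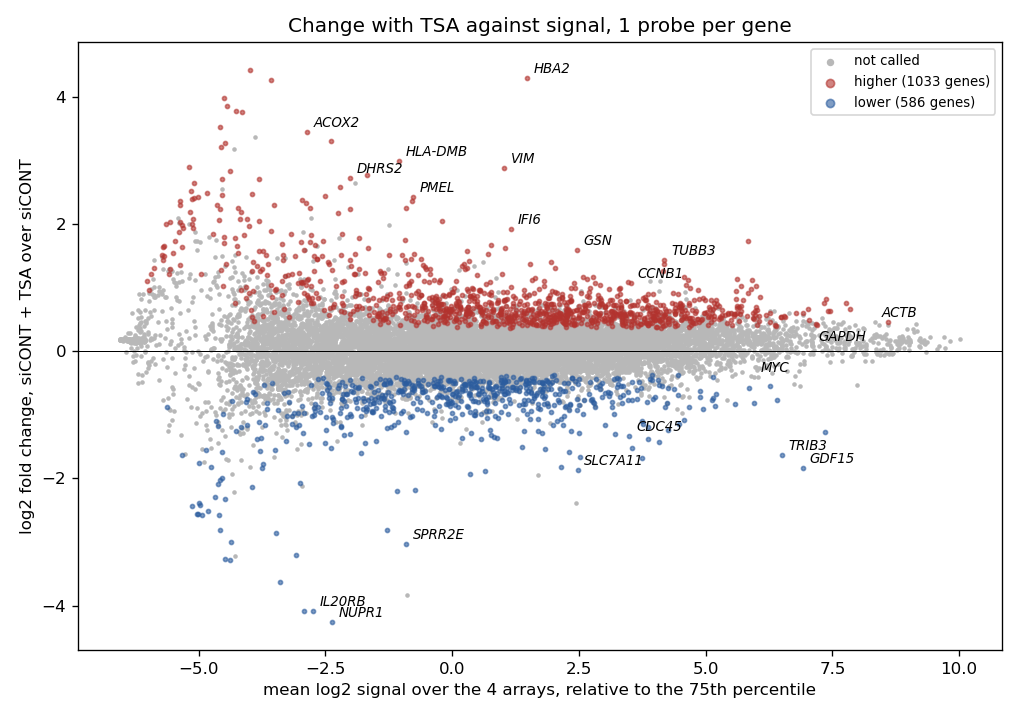
Log2 fold change of siCONT + TSA over siCONT (vertical axis) against the mean log2 signal over the 4 arrays (horizontal axis), with 1 point per named gene. The 1033 genes called higher are red and the 586 called lower are blue. The largest changes lie among dim genes, whereas GDF15 and TRIB3 fell from a bright signal.

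The largest rise among genes measured on all 4 arrays was in HBA2, a gene for the alpha chain of haemoglobin. Its signal was -0.69 and -0.66 on the siCONT arrays and 3.64 and 3.60 on the TSA arrays, a 19.7-fold increase (log2 4.30, SE 0.23, adjusted p = 0.0019). The probe lies at chr16:223560-223619 (hg19), all 3 HBA2 probes rose, and HBA1, a near-identical copy, cannot be told apart from it by such probes. HBA2 was the 1 gene called among the 7 tested members of the globin and erythroid list.

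A group of the largest rises belonged to cell structure and the cell surface. VIM, which encodes the intermediate filament protein vimentin of mesenchymal cells, read -0.39 and -0.43 without TSA and 2.49 and 2.45 with it (7.35-fold, log2 2.88, SE 0.12, adjusted p = 0.00093). Its probe spans chr10:17278347-17279256 (hg19). TGFBI, a secreted matrix protein, read -1.96 and -2.10 without TSA and 0.17 and 0.25 with it, a rise of 2.25 on the log2 scale. KCNN4, a calcium-activated potassium channel, read -1.88 and -2.06 against 0.38 on both TSA arrays. F2RL2, a thrombin receptor of the protease-activated family, read -3.88 and -4.22 against -1.68 and -1.75. The rule that chose these genes required both TSA arrays on one side of both siCONT arrays. The gap was several times the distance within a pair.

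PMEL, the structural protein of pigment granules, read -1.98 and -2 without TSA and 0.42 and 0.46 with it (5.38-fold). DHRS2, a short-chain dehydrogenase, read -3.26 and -3.47 without TSA and -0.70 and -0.60 with it (6.56-fold, adjusted p = 0.0012). RFPL4A rose from -3.39 and -4.07 to -1.20 and -1.38, and TNIP3, which binds the NF-kappa B inhibitor TNFAIP3, from -4.17 and -3.72 to -1.68 and -1.69. The antisense RNA RGMB-AS1 rose from -3.06 and -3.23 to -0.80 and -0.998. The groups did not overlap in any of them, which the rule that chose them required. The pair farthest apart was that of RFPL4A on the siCONT arrays.

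**Figure D2:**
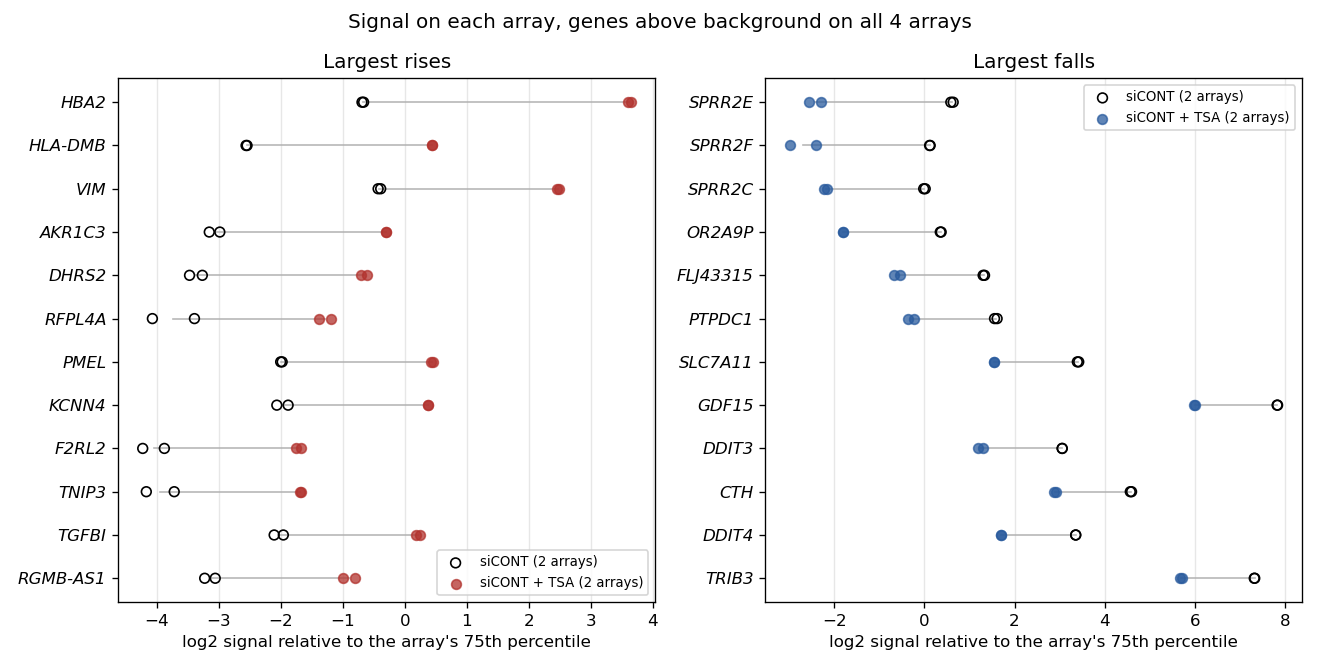
Log2 signal relative to the 75th percentile of the array (horizontal axis) for the 12 largest rises and the 12 largest falls among genes above background on all 4 arrays. Open circles are the 2 siCONT arrays, filled circles are the 2 siCONT + TSA arrays, and grey lines join the group means. In every row the 2 filled circles lie on one side of the 2 open circles, which the rule that chose the genes required.

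Further genes went from below background to a measured signal. There were 53 such genes that rose with neither siCONT array and both TSA arrays above background, and for these only a lower limit of the fold can be given. For it, each siCONT array was given the dimmest signal counted as above background on it, or the signal of the probe where this was brighter. ACOX2, a peroxisomal oxidase of bile acid synthesis, rose at least 9.02-fold, with -4.44 and -4.76 on the siCONT arrays and -1.09 and -1.20 on the TSA arrays. DEFB103B, a beta-defensin, rose at least 4.17-fold and has a near-identical copy. CPED1 rose at least 3.89-fold on 1 of its 3 probes, CARD6 at least 3.64-fold and ADPRHL1 at least 3.57-fold. The limits for GLIPR1 and AKR1C1 were 5.79-fold and 7.35-fold. A further 27 genes were called higher although no array of either group was above background, and no fold is given for them.

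The aldo-keto reductases, enzymes that reduce carbonyl groups of steroids, prostaglandins and sugars, were examined as a family after their values had been seen. Of 9 tested members 4 rose (44.4% against 7.48% of all genes) and none fell. AKR1C3 read -2.98 and -3.15 without TSA and -0.31 and -0.30 with it (6.79-fold, adjusted p = 0.0056), and AKR1C8 rose at least 2.79-fold from below background. AKR1B1 rose by 1.72 on the log2 scale (adjusted p = 0.045). AKR1B10 read -3.06 and -3.43 against -0.58 and -0.64, a wide gap that was not called (adjusted p = 0.15). AKR1C genes are near-identical in sequence, so a probe of one may also read another. In the wider list of NRF2 and redox genes, which guard against oxidants, 6 of 24 tested members rose (25% against 7.48% of all genes) and 1 fell, with a median change of 0.25. Among them PRDX1, a peroxidase, read 6.99 and 6.96 without TSA and 7.82 and 7.76 with it (1.76-fold, adjusted p = 0.015). HMOX1, which breaks down haem, and GSR, which renews glutathione, rose by 0.51 and 0.52. With 1 of the 4 arrays left out, 3 members of this list stayed higher in each case.

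The genes of antigen presentation on HLA class II molecules, which show peptides to helper T cells, were another family read in full after the fact. Of 13 members on the array 6 were tested, and 4 of these rose (66.7% against 7.48% of all genes). HLA-DMB and HLA-DMA encode the chaperone that loads peptides. HLA-DMB read -2.56 and -2.54 without TSA and 0.44 on both arrays with it (7.95-fold, log2 2.99, SE 0.29, adjusted p = 0.0086), at chr6:32902504-32902563 (hg19). HLA-DMA rose by 1.498 (adjusted p = 0.042). The beta chain gene HLA-DPB1 rose at least 3.85-fold from below background, and all 4 of its probes were called. HLA-DPA1 rose by 1.04 (adjusted p = 0.030). HLA-DRB1 and HLA-DQB1 differed by 0.18 and 0.27 and were not called. HLA genes resemble each other in sequence and vary between people, which can change how well a probe binds. Over the list of HLA molecules and ligands of the natural killer receptor NKG2D, 2 of 21 tested members rose (9.52%), HLA-DMB and HLA-DMA. ULBP1, such a ligand, fell by 1.07.

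Of 24 tested interferon response genes 3 rose (12.5% against 7.48% of all genes), and no member fell. IFI6 read 0.22 and 0.20 without TSA and 2.15 and 2.09 with it (3.77-fold, adjusted p = 0.0014). IFIT1, an RNA-binding antiviral protein, rose by 1.10 and the antiviral GTPase MX1 by 0.57. The median of the list was 0.11 and that of all genes 0.07. Among chemokines and cytokines, the interleukin IL18 rose from -3.82 and -3.60 to -1.91 and -1.86 (3.54-fold), whereas CXCL2 fell by 1.06 and LIF by 0.62. IL20RB, a receptor chain, fell to below background, by at least 11.4-fold.

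Of the 37 gene lists drawn up for the comparison, the amino acid and unfolded protein response had the largest share of members that fell. These genes are switched on, largely through the transcription factor ATF4, when amino acids run short or proteins misfold in the endoplasmic reticulum. Of 26 tested members 17 fell and none rose, which is 65.4% against the 4.25% of all genes, and the median change was -0.80. ATF4 itself read -0.15 on the log2 fold change scale and was not called (adjusted p = 0.52).

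Several of the members that fell are stress mediators. NUPR1, a small stress-induced chromatin protein, read -0.31 and -0.17 without TSA and was below background on both TSA arrays, a fall of at least 15.7-fold. DDIT3, the pro-apoptotic factor also called CHOP, read 3.06 on both siCONT arrays and 1.19 and 1.29 with TSA (3.52-fold lower, adjusted p = 0.012). TRIB3, a pseudokinase induced by ATF4 and DDIT3, read 7.33 and 7.32 without TSA and 5.72 and 5.66 with it. DDIT4, a brake on mTOR signalling, fell from 3.36 on both arrays to 1.69 and 1.70. PPP1R15A, which restarts protein synthesis after stress, fell by 1.25, and the transcription factors CEBPG, CEBPB and XBP1 fell by 0.88, 0.75 and 0.90.

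The genes of amino acid uptake and synthesis fell with them. SLC7A11, the cystine transporter, read 3.39 and 3.42 without TSA and 1.55 and 1.54 with it (3.64-fold lower, log2 -1.86, SE 0.13, adjusted p = 0.0044), at chr4:139085433-139085492 (hg19). ASNS, asparagine synthetase, read 8.01 and 7.96 against 6.75 and 6.68. CTH, which is not on the list and makes cysteine from cystathionine, read 4.57 and 4.60 against 2.92 and 2.88. The serine pathway enzymes PHGDH, PSAT1 and SHMT2 fell by 0.88, 0.83 and 0.57. SLC7A5 and its partner SLC3A2, which together import large neutral amino acids, fell by 1.15 and 0.87. Of 12 amino acid transporters, a set drawn up after these values were seen, 8 fell (66.7% against 4.25% of all genes) and none rose.

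Aminoacyl-tRNA synthetases, which join amino acids to their tRNAs, were also listed afterwards. Of the 20 cytosolic enzymes 7 fell (35% against 4.25% of all genes). These were CARS1 by 1.38, WARS1 by 1.31, AARS1 by 1.28, GARS1 by 0.93, YARS1 by 0.87, IARS1 by 0.85 and EPRS1 by 0.73. The other 13 were not called, among them HARS1, VARS1 and KARS1 with changes between -0.02 and 0.08. Of the 17 mitochondrial enzymes FARS2 fell by 0.67 and VARS2 rose by 0.70, and the median was 0.05.

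Among the unfolded protein genes, PDIA4, a disulfide isomerase, and SEL1L, which helps to export misfolded proteins, fell by 0.62 and 0.56, whereas the chaperones HSPA5 and HSP90B1 were not called. With 1 of the 4 arrays left out, 2 or 3 members of the list stayed called lower and the median stayed between -0.82 and -0.76. Under the scaling on spike-in probes 14 members fell. One promoter sequence is printed because ASNS is the standard example of the amino acid response element, searched here as TGATGNAA on both strands of the 250 bases before and 50 bases after each RefSeq start (GRCh38.p14). The element, in capitals, lies in chr7:97872458-97872487 on the minus strand, the strand of the gene.
ASNS: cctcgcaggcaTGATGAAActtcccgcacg
These letters occurred in 188 of 10752 promoters of tested genes (1.75%), in 19 of 461 promoters of genes that fell (4.12%), in 13 of 794 promoters of genes that rose (1.64%) in 5 of 22 promoters of the list (22.7%) and in 2 of its 14 promoters of genes that fell (14.3%).

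DNA replication genes fell as well, and mitosis genes rose. These genes copy the genome in S phase and divide the chromosomes after it, and both sets are on mainly in dividing cells. Of 49 tested replication genes 15 fell and none rose (30.6% against 4.25%), with a median of -0.46. Of 32 tested mitosis genes 14 rose and none fell (43.8% against 7.48%), with a median of 0.31.

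**Figure D3:**
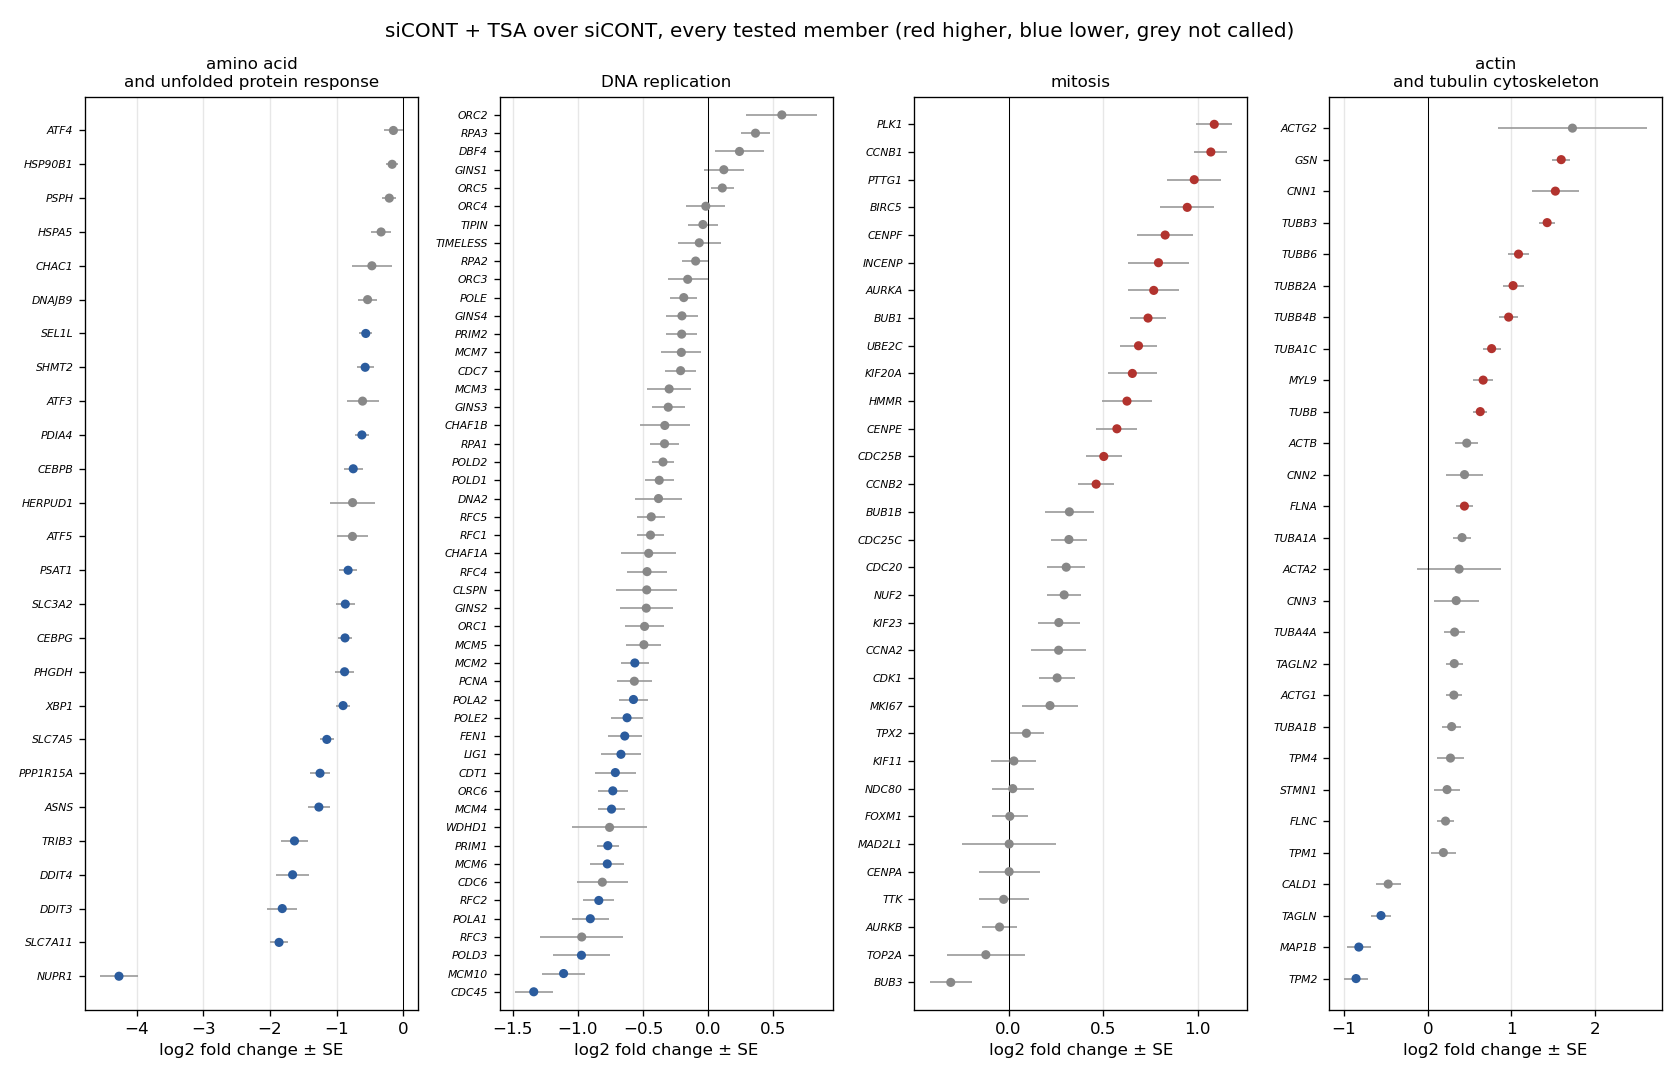
Log2 fold change with its SE (horizontal axis) of every tested member of 4 gene lists, siCONT + TSA over siCONT. Red points were called higher, blue points lower and grey points were not called. NUPR1 and CDC45 lie lowest in their lists and PLK1 highest in mitosis, and ACTG2, highest in the cytoskeleton, was not called.

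In replication the fall reached the loading and the firing of origins and the synthesis of both strands. CDC45, part of the helicase, read 4.18 and 4.15 without TSA and 2.85 and 2.81 with it (2.53-fold lower, adjusted p = 0.010). MCM10, which opens the origin, read -0.57 and -0.47 against -1.63 and -1.64. The helicase subunits MCM6, MCM4 and MCM2 fell by 0.77, 0.74 and 0.56, and the loading factors CDT1 and ORC6 by 0.71 and 0.73. Of the polymerases that start and extend the strands, POLA1 fell by 0.90, POLA2 by 0.57, PRIM1 by 0.77, POLD3 by 0.97 and POLE2 by 0.62. The clamp loader RFC2 fell by 0.84, and FEN1 and LIG1, which finish the lagging strand, by 0.64 and 0.67. Each of these falls was below 3-fold, and no member of the list was called with 1 of the 4 arrays left out, where the median stayed between -0.45 and -0.43.

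Homologous recombination and Fanconi genes, which repair broken and cross-linked DNA, fell in 10 of 33 tested members (30.3% against 4.25% of all genes) and rose in 1. BRCA1 read 0.98 and 1.04 without TSA and -0.29 and -0.27 with it (2.44-fold lower, adjusted p = 0.015). The nuclease gene EXO1 fell by 1.24, RBBP8, which starts end resection, by 1.02, and RAD54L and RAD54B by 0.94 and 0.78. FANCF was the exception and rose by 0.70. Of 20 nucleotide synthesis genes DUT fell by 0.69 (5% against 4.25% of all genes). Of 23 genes of G1 cyclins, E2F and RB, E2F3 and TFDP2 rose by 0.54 and 0.45 (8.7% against 7.48% of all genes). Both shares are near those of all genes. In the list of G1 cyclins, E2F and RB, 18 members lay below 0 and 5 above, with a median of -0.21. With 1 of the 4 arrays left out, no member of these 3 lists was called.

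The promoters of 4 replication genes that fell are shown because letters of the E2F site, which the E2F factors bind in S phase genes, stand in them. The site was searched as TTTNNCGC on both strands, so that the overlapping reverse match of a palindromic site is counted in the same promoter. Capitals mark the match, and the windows are chr16:88803743-88803772 on the minus strand for CDT1, chr19:48170440-48170469 on the minus strand for LIG1, chr2:135876577-135876606 on the minus strand for MCM6, and chrX:24693770-24693799 on the minus strand for POLA1.
CDT1: ttcccgccaaaTTTCCCGCgggcgccctgg
LIG1: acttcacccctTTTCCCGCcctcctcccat
MCM6: agggctttgcaTTTGGCGCgaaatcccttt
POLA1: gcggacgcgcgTTTGGCGCcctgtgatgac
The letters stood in 21 of 42 promoters of the replication list (50%), in 8 of its 13 promoters of genes that fell (61.5%), in 63 of 461 promoters of all genes that fell (13.7%) and in 1115 of the 10752 promoters of tested genes (10.4%).

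Among mitosis genes the rises were in cyclin B and its regulators, the spindle and the checkpoint. PLK1, a mitotic kinase, read 0.20 and 0.21 without TSA and 1.34 and 1.25 with it (2.13-fold, adjusted p = 0.0066). CCNB1, the cyclin of the mitotic kinase, read 2.97 and 3.003 against 4.04 and 4.07 (2.10-fold, adjusted p = 0.0058), on both of its probes. PTTG1, the securin that keeps chromatids from separating too early, rose by 0.98 and BIRC5 and INCENP of the chromosomal passenger complex by 0.95 and 0.79. BUB1 of the spindle checkpoint rose by 0.74, the kinase AURKA by 0.77, the ubiquitin enzyme UBE2C by 0.69, and CENPF, CENPE, KIF20A and HMMR by 0.83, 0.57, 0.65 and 0.63. CDC25B and CCNB2 rose by 0.50 and 0.46. MKI67, the proliferation marker, changed by 0.22 and was not called. With 1 of the 4 arrays left out, 1 or 2 mitosis genes stayed called, and under spike-in scaling 5 did.

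The promoters of 3 mitosis genes that rose are shown for the CHR element, the site of the complexes that time late cell cycle genes, searched as TTTGAA on both strands. The windows are chr16:23678848-23678877 for PLK1, chr15:59105105-59105134 for CCNB2 and chr5:163460592-163460621 for HMMR, all on the plus strand, and capitals mark the match.
PLK1: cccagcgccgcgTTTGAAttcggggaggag
CCNB2: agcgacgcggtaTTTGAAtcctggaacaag
HMMR: aatgtggggagaTTTGAAtttgaaaccggt
The element stood in 16 of 25 promoters of the mitosis list (64%) and in 5 of its 11 promoters of genes that rose (45.5%), against 1058 of the 10752 promoters of tested genes (9.84%). The CCAAT box, searched as CCAAT, stood in 19 of the 25 (76%) against 36.8% of all.

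The cytoskeleton list holds actins, actin-binding proteins and tubulins, and 10 of its 28 tested members rose (35.7% against 7.48% of all genes) while 3 fell, with a median of 0.39. GSN, which encodes the actin-severing protein gelsolin, read 1.61 and 1.70 without TSA and 3.27 and 3.24 with it (3.02-fold, log2 1.59, SE 0.11, adjusted p = 0.0043), at chr9:124094771-124094830 (hg19). Of the tubulin genes 6 rose: TUBB3, the neuronal beta-tubulin, from 3.47 and 3.48 to 4.90 on both arrays (2.69-fold), TUBB6 by 1.08, TUBB2A by 1.02, TUBB4B by 0.97, TUBA1C by 0.76 and TUBB by 0.63. Tubulin genes are close relatives and part of these signals may be shared. The smooth muscle protein CNN1 rose by 1.52, the myosin light chain MYL9 by 0.66 and the actin cross-linker FLNA by 0.44. In the opposite direction TPM2, a tropomyosin, fell by 0.86, MAP1B by 0.82 and TAGLN by 0.56, so muscle-type members moved both ways. ACTB rose by 0.47 on its brighter probe without being called (adjusted p = 0.084), and its dimmer probe read -0.003 on the log2 fold change scale. With 1 of the 4 arrays left out 2 members of the list stayed higher, and under spike-in scaling 3 rose and 1 fell.

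Of 12 tested mesenchymal genes 4 rose (33.3% against 7.48% of all genes) and none fell: VIM, TGFBI, S100A4 and TGFB1. S100A4, a calcium-binding protein of motile cells, read -1.66 and -1.63 without TSA and -0.19 and -0.23 with it (2.70-fold, adjusted p = 0.013). The growth factor TGFB1 rose by 0.43. Of 11 tested S100 genes, a family listed after the values were seen, 5 rose (45.5% against 7.48% of all genes) and none fell. S100A10 went from -3.14 and -3.52 to -1.08 and -1.25. The summed signal of the 5 fibroblast markers was 0.24 to 0.27 times the 75th percentile on the siCONT arrays and 0.55 to 0.57 on the TSA arrays, with COL1A2, COL3A1 and DCN below background on all 4, and its part in these rises was not tested.

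Of 17 tested heat shock genes 4 rose (23.5% against 7.48% of all genes), HSPH1 by 0.80, HSPE1 by 0.60, DNAJA1 by 0.59 and HSPA1B by 0.50, with no fall. Under spike-in scaling, and with any 1 of the 4 arrays left out, no member was called. Of 29 ribosome biogenesis and MYC network genes 5 rose (17.2% against 7.48% of all genes) and 1 fell (3.45% against 4.25%). RRS1, needed for large ribosomal subunits, rose by 0.91, MXD4 by 0.71, NOP16 by 0.50, NOP58 by 0.46 and BOP1 by 0.43, while MXD1, which opposes MYC, fell from 2.44 and 2.39 to 1.09 and 1.18 (2.43-fold). The median of this list was 0.16, and -0.02 under normexp correction and under spike-in scaling. MYC read 6.15 and 6.18 without TSA and 5.75 and 5.77 with it, which was not called in the fit to 8 arrays (adjusted p = 0.17) and was in the fit to the 4 arrays alone (adjusted p = 0.0081).

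Of 23 tested p53 targets 7 fell (30.4% against 4.25% of all genes) and 1 rose (4.35% against 7.48%). The factor p53 answers DNA damage and is of wild type in RKO. GDF15, a cytokine of stressed cells, read 7.84 and 7.83 without TSA and 6.002 and 5.99 with it (3.57-fold lower, log2 -1.84, SE 0.18, adjusted p = 0.0085), at chr19:18499890-18499949 (hg19). The sestrins SESN2 and SESN1 fell by 1.26 and 1.02, BTG2 by 0.77, XPC by 0.55, FAS by 0.55 and BBC3 by 0.54. TP53I3 rose by 0.98. GDF15 and SESN2 are also known targets of ATF4, so the 2 lists are not separate evidence. With 1 of the 4 arrays left out, none or 1 of the list was called lower, and under spike-in scaling 3 were.

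Among the cell cycle brakes GADD45A, a growth arrest gene, read 4.58 and 4.53 without TSA and 3.16 and 3.19 with it (2.61-fold lower, adjusted p = 0.015). With BTG2 it made up the 2 falls among 13 members (15.4% against 4.25% of all genes). CDKN1A, the p21 inhibitor and the textbook gene induced by HDAC inhibitors, read 0.25 and 0.21 without TSA and -0.27 and -0.15 with it. It was lower on both TSA arrays and not called in the main fit (log2 -0.43, SE 0.12, adjusted p = 0.069), and it was called in the fit to the 4 arrays alone (adjusted p = 0.014). Of 19 tested histone genes 2 fell (10.5%), among them H2AC6 by 0.81. TXNIP, another gene often induced by these drugs, differed by -0.07 and was not called.

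In the BCL2 family, which sets the threshold for cell death, PMAIP1, BBC3 and BCL2 fell by 0.77, 0.54 and 0.56 and BAK1 rose by 0.55, of 16 tested, and the sign of BCL2 turned after normexp correction. Of the 16, 18.8% fell and 6.25% rose, against 4.25% and 7.48% of all genes. PMAIP1 and BBC3 promote death and BCL2 opposes it. Of 19 death receptor and caspase genes TRADD rose by 0.99 and FADD by 0.44, both adaptors of the receptors, and FAS fell. Of these 19, 10.5% rose and 5.26% fell, near the 7.48% and 4.25% of all genes. Of 26 glycolysis and hypoxia genes 5 fell (19.2% against 4.25% of all genes) and 1 rose (3.85% against 7.48%). The carbonic anhydrase CA9 read 0.64 and 0.74 against -0.26 and -0.35, ADM fell by 1.09, VEGFA by 0.83, PDK1 by 0.75 and ENO2 by 0.50. The glucose transporter SLC2A3 rose by 0.46.

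The skin-type small proline-rich proteins, which harden the outer layer of stratified epithelium, held the largest falls measured on both sides. SPRR2E read 0.59 and 0.64 without TSA and -2.29 and -2.56 with it (8.21-fold lower, log2 -3.04, SE 0.70, adjusted p = 0.045), at chr1:153065672-153065731 (hg19). SPRR2F fell by 2.82 and SPRR2C by 2.19. SPRR2A read 0.35 and 0.43 against -3.44 on the TSA array with a value, the other being left out as an outlier, and was not called (adjusted p = 0.068). SPRR2D and SPRR1A differed by -0.31 and 0.28. The SPRR2 genes are near-identical neighbours, so these probes may read the same transcripts.

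Other large falls had no list in common. OR2A9P, an olfactory receptor pseudogene, read 0.35 and 0.37 without TSA and -1.81 on both arrays with it (4.51-fold lower, adjusted p = 0.0020), FLJ43315 fell by 1.92 on its brighter probe and by 1.79 on the other, and OR2A20P fell to below background by at least 4.47-fold. PTPDC1, a phosphatase, read 1.56 and 1.61 against -0.22 and -0.37. In all, 45 genes fell from above background on both siCONT arrays to below it on both TSA arrays. TRPV6, an epithelial calcium channel, fell at least 10.0-fold, CLIP4, a microtubule protein, at least 6.59-fold on 1 of 2 probes, KLHDC7B at least 6.15-fold, GCNA, a germ cell protein, at least 4.16-fold, and CYP4F29P at least 2.82-fold, with a sign that turned after normexp correction.

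**Figure D4:**
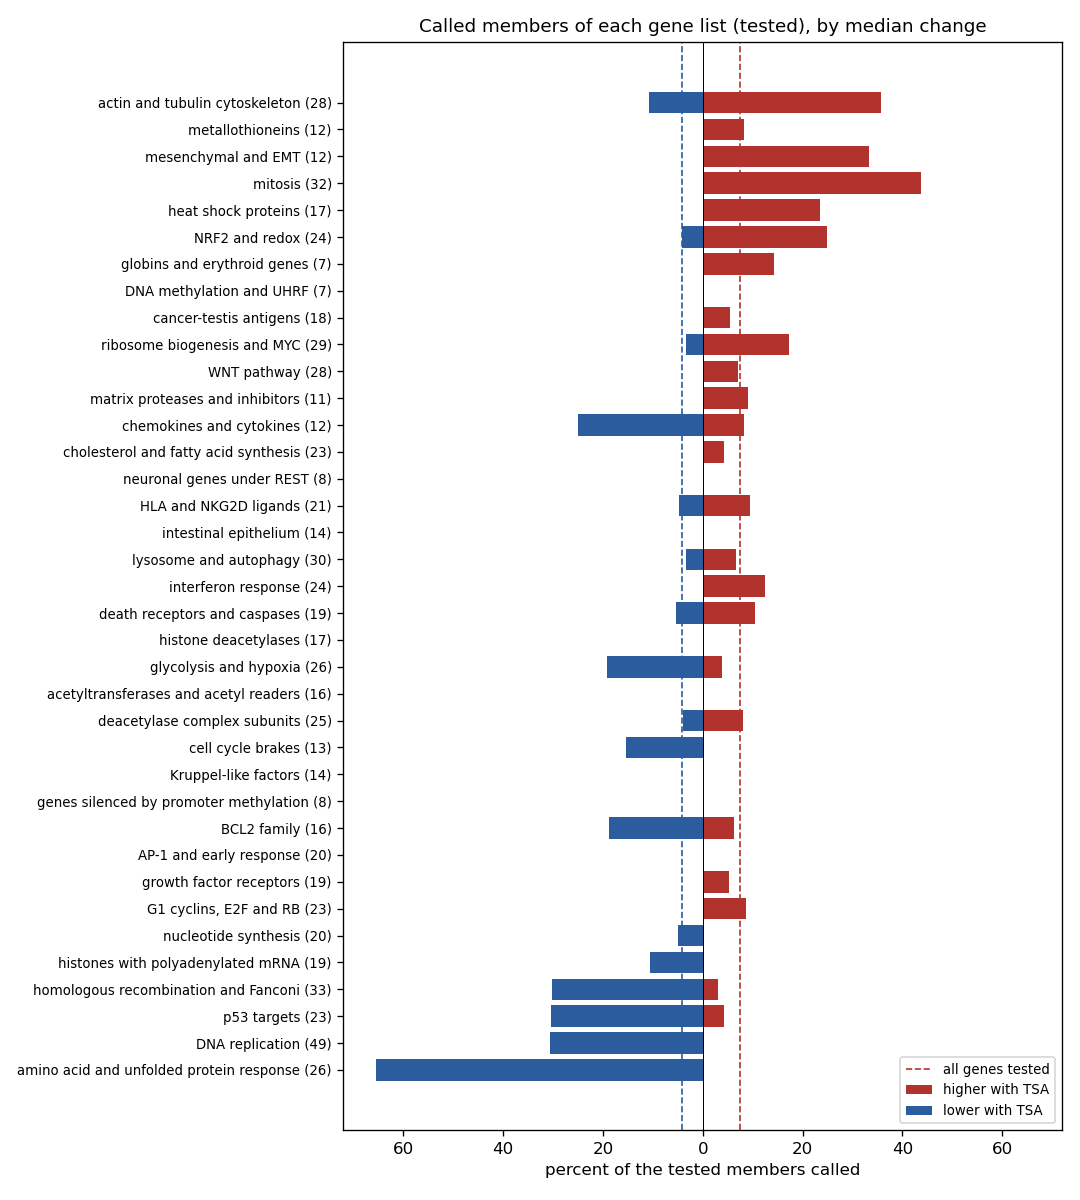
Percent of the tested members of each of the 37 gene lists, without the families added after the values were seen, called higher (red, to the right) or lower (blue, to the left) with TSA, with the number tested in brackets and lists ordered by median change. Dashed lines mark the 7.48% and 4.25% of all genes. Among these lists the amino acid and unfolded protein response stands farthest to the left and mitosis farthest to the right.

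Of 17 tested deacetylase genes, which include the targets of the drug, none was called in either direction by limma. At an unadjusted p below 0.05 there were 3 of them, where 6867 of all 23730 probes were. In the fit to the 4 arrays alone 5 of the 17 were called higher and 4 lower, where 9929 probes were called. The changes of the deacetylase genes ran from -0.39 to 0.40 around a median of 0.03. None of 16 acetyltransferases and acetyl readers was called by limma (2 at an unadjusted p below 0.05). In the fit to the 4 arrays alone 2 of these 16 were called higher and 4 lower. Of 25 subunits of deacetylase complexes MBD3 and GATAD2B of the NuRD complex rose by 0.70 and 0.69, and TBL1X, which carries HDAC3 to its targets, fell by 0.74 on the brightest of 3 called probes. These shares, 8% higher and 4% lower, were near the 7.48% and 4.25% of all genes. UHRF1 read 2.69 on both siCONT arrays and 2.87 and 2.86 with TSA and was not called (adjusted p = 0.45). None of 7 tested DNA methylation genes was called by limma (1 at an unadjusted p below 0.05). Of the 6 tested in the fit to the 4 arrays alone, 2 were called higher. GAPDH differed by 0.08, a sign that turned under normexp, quantile and spike-in scaling.

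Genes kept silent by promoter methylation in CRC were mostly not detected with TSA alone. Of 17 such genes 10 were below background on all 4 arrays, among them SFRP1, SFRP2 and SFRP5, which hold back WNT signalling. TIMP3 was above background on 1 TSA array. None of the 8 tested was called by limma, and 0 had an unadjusted p below 0.05. DKK1, a secreted WNT inhibitor, read -0.96 and -0.84 without TSA and -1.46 and -1.63 with it (adjusted p = 0.37), and SOCS1, GATA4, NEURL1, CDKN2A and CRABP1 differed by -0.10, -0.30, -0.06, -0.04 and 0.82 and were not called. IGF2 and RUNX3 were tested on the strength of the siUHRF1 arrays and were below background on all 4 arrays here. Of 23 cancer-testis antigens on the array, genes of germ cells that methylation silences elsewhere, 20 were below background on all 4 arrays and 18 were above it on both arrays of UHRF1-depleted cells with TSA. SOHLH1 was called higher without being above background.

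In the remaining lists the share of members called was near or below that of all genes. Of 28 WNT pathway genes CTNNB1 and DVL3 rose by 0.46 and 0.49, of 19 growth factor receptors FGFR3 rose by 0.58, of 11 matrix proteases and inhibitors TIMP1 rose by 0.51, and of 12 metallothioneins MT2A rose by 0.46. The metallothioneins had a median of 0.38 against 0.07 for all genes, with 11 members above 0 and 1 below. Of the 12, 7 were at an unadjusted p below 0.05 in limma. Of 30 lysosome and autophagy genes 2 rose, among them GABARAPL1 by 0.57, and ATG7 fell by 0.46. None of 14 intestinal epithelium genes, 8 neuronal genes under REST, 20 AP-1 and early response genes and 14 Kruppel-like factors was called by limma. At an unadjusted p below 0.05 these lists had 4, 2, 1 and 4 members, where 6867 of all 23730 probes were. The cyclin CCND1 differed by -0.09. Long noncoding RNAs were higher in 6.96% and lower in 3.21% of 560 tested, and protein-coding genes in 7.52% and 4.35% of 12612. When genes were put in 5 equal bins by their level on the siUHRF1 arrays without TSA, which took no part in the difference, 7.06% of the dimmest bin and 9.74% of the brightest were higher, and between 3.08% and 5.54% of every bin were lower. The promoters of genes that rose and fell had median GC contents of 63.7% and 65%, against 65% for all, whereas the 34 promoters of genes that rose from below background had 60.7%, with a CpG frequency of 0.46 of that expected against 0.83 for all. These 34 were chosen as below background without TSA. Promoters of equally dim genes that did not rise were not compared, so the values cannot be tied to the rise.

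The siUHRF1 arrays gave another reading of the drug on arrays that share no sample with the first. Both readings used the same estimate of spread, drawn from all 8 arrays, so a call in one setting is not independent of a call in the other. UHRF1 depletion differed between the 2 settings, and all 8 arrays lay on 1 slide. In both settings the arrays with TSA lay in the other row of that slide, so row and treatment cannot be told apart in either. The siUHRF1 arrays with and without TSA are paired by siRNA, a pairing that the fit used here leaves out. In siUHRF1 cells TSA raised 1586 genes (11.5%) and lowered 843 (6.11%) in that fit, and with the siRNA as a term the number of probes called there went from 3671 to 7943. Of the 1033 genes that rose in siCONT cells, 1030 were higher with TSA in siUHRF1 cells too, where 57.8% of all genes were, and 796 were called there. Of the 586 that fell, 574 were lower, where 42.2% of all genes were, and 448 were called. No gene was called in opposite directions. Taken from the other side, 50.2% of the genes that rose in siUHRF1 cells and 53.1% of those that fell were called the same way in siCONT cells.

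The values of 4 of the lists there were as follows, where 11.5% of all genes were called higher and 6.11% lower. The amino acid and unfolded protein response had 20 of 26 members lower and a median of -1.09, replication had 24 of 49 lower and a median of -0.60, mitosis had 12 of 32 higher and a median of 0.22, and the cytoskeleton had 11 of 28 higher and a median of 0.38. Other lists had different counts in the 2 settings, which is no test of a difference. There 17 of 18 tested cancer-testis antigens were higher against 1 in siCONT cells, 7 of 12 mesenchymal genes against 4 and 6 of 12 metallothioneins against 1. None of 6 small proline-rich genes was lower against 3. The difference itself was called for 2 of these mesenchymal genes, 1 metallothionein and 0 small proline-rich genes. The metallothionein medians were 0.45 there and 0.38 in siCONT cells. Of the mesenchymal genes 2, and of the metallothioneins 1, were above background on none of the 4 siCONT arrays. Of the 18 antigens, 15 were above background on none of the 4 siCONT arrays and were tested only through the siUHRF1 groups. Their count there was thus largely set by the filter and is no comparison of the 2 settings. VIM rose by 3.08 there, HLA-DMB by 3.16, HBA2 by 4.02, GSN by 1.52 and IFI6 by 1.93, while SLC7A11 fell by 1.85 and GDF15 by 1.58. SPRR2E and SPRR2C read -1.67 and -0.73 on the log2 fold change scale there and were not called, and neither was the difference between the 2 settings. The effect of TSA differed between siCONT and siUHRF1 cells for 55 genes (0.398% of those tested), and 8 of them were among the genes called in siCONT cells.

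**Figure D5:**
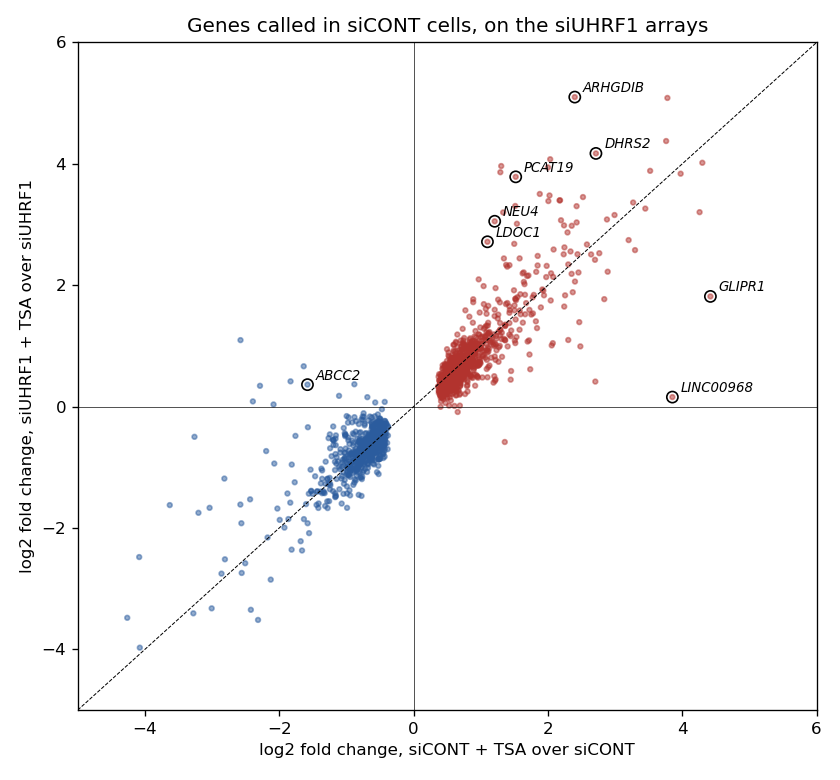
Log2 fold change with TSA in siUHRF1 cells (vertical axis) against that in siCONT cells (horizontal axis) for the 1619 genes called in siCONT cells, red if higher and blue if lower there. The dashed line marks equal effects, and circles mark the 8 genes with a called difference, of which GLIPR1 and LINC00968 lie below the line on the right.

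Of 110 named genes called, 22 were still called with each of the 4 arrays left out in turn, and 77 were called in none of these fits. Those that rose included RGMB-AS1, F2RL2, DHRS2, AKR1C3, VIM, HBA2, HLA-DPB1, GLIPR1, AKR1C1, ACOX2, CCNB1, GSN, TUBB3 and IFI6. Those that fell were OR2A9P, PTPDC1, SLC7A11, GCNA, TRPV6, IL20RB and NUPR1. For HLA-DPB1, GLIPR1, AKR1C1 and ACOX2 only a lower limit of the fold is known, since their siCONT signals did not pass background. The same holds for GCNA, TRPV6, IL20RB and NUPR1, whose TSA signals did not pass it. A kept call of these genes rests on such signals and does not show a stable fold.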

How the data were processed

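Total RNA was labelled with Cy3 and hybridised to Agilent human arrays. The authors deposited Feature Extraction intensity values (gProcessedSignal, version 10.7 per the labels), already background-subtracted, and a value table of the same intensities rounded, which served as an alternative. Log2 of the intensity was taken and the 75th percentile of the array subtracted. Control probes and outlier spots were left out, and spots of a probe were averaged. A probe was tested if at least 1 of the 4 siRNA groups had it well above background on each of its arrays. The fit used limma 3.58.1 in R 4.3.3 on the 8 siRNA arrays in 4 groups, with Benjamini-Hochberg adjustment over all probes tested and calls at an adjusted p below 0.05. The brightest probe stood for a gene. Of 50599 probes, 28174 were named by accession, 3238 by symbol or synonym, and 19187 kept the array's name. Probe positions are on hg19 as the arrays give them, and promoters are from RefSeq on GRCh38.p14.

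The text names the 12 largest rises and falls measured on all 4 arrays, the 8 largest lower limits each way, and members of the lists. The 12 largest were taken among called genes with both TSA arrays on one side of both siCONT arrays. The members and lists were chosen with earlier results of these data known. All 8 arrays lay on 1 slide with 1 scan, so no batch term could be fitted. The number of arrays limits the precision. On simulated data for this comparison over 23730 probes, 46% of 100 probes changed by log2 1 and 81% of 100 changed by log2 2 were recovered, with 6 false calls among 133. The simulation gave all arrays of a probe the same spread and changed far fewer probes than were called here. The pairs of arrays in the data differed in spread, so these rates do not carry over to them. The alternatives were other background corrections, scalings, filters, fits and tests, and leaving out each array. Some genes are not reported here.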

Additional observations from a re-analysis of the deposited data

Results flagged for a closer look

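For 8 genes called in siCONT cells the effect of TSA differed between siUHRF1 and siCONT cells in limma's interaction term (log2 effect in siUHRF1 cells minus that in siCONT cells). The difference was 2.70 for ARHGDIB (adjusted p = 0.0086), 2.27 for PCAT19, 1.94 for ABCC2, 1.85 for NEU4, 1.62 for LDOC1 and 1.46 for DHRS2 (adjusted p = 0.046). It was -2.60 for GLIPR1 (adjusted p = 0.0027) and -3.70 for LINC00968. After normexp background correction the sign turned for ABCC2 (-0.13), NEU4 (-0.36) and LDOC1 (-0.33), ARHGDIB fell to 0.65, GLIPR1 read -0.54 and LINC00968 -1.06, none of these called, while PCAT19 (1.99) and DHRS2 (1.71) stayed called. Under spike-in scaling DHRS2 was not called (adjusted p = 0.31). GLIPR1 was below background on the siCONT arrays and read -3.43 and -3.68 on the siUHRF1 arrays, and with TSA it lay between -1.81 and -1.72 on all 4 arrays. LINC00968 read -2.85 and -2.18 on the siCONT + TSA arrays and was below background on the other 6. ARHGDIB, LDOC1 and NEU4 were above background on the siUHRF1 + TSA arrays only, and they and LINC00968 were tested through the 1 group where they were high. Their differences set such values against signals below background, so they are not measured sizes and their p-values carry no support. The difference of GLIPR1 rests on siCONT signals below background and that of ABCC2 on siCONT + TSA signals below background. Neither is a measured size, and their p-values rest on those signals. With only probes above background on all 8 arrays no difference was called by limma, and with a trended and robust prior 1 probe was.

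On the single array of cells given 5-aza-dC, 7 of the 17 genes silenced by promoter methylation were above background that were below it on all 4 siCONT arrays, with and without TSA, among them GATA5, SFRP1, UCHL1 and RUNX3. That array has no replicate, and it had a 75th percentile of 821.6 against 245 to 285 on the 4 arrays.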

How the results depend on the processing

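The number of probes called for TSA in siCONT cells was 2469. It was 418 after normexp background correction (49.0% higher, against 62.1%), 906 under spike-in scaling (33.7% higher), 668 with no filter on dim probes, 598 with a change over 2-fold also required, 9929 in the fit to the 4 arrays, and 6756 with the siUHRF1 siRNA as a term, which was chosen after seeing the data. The methods' t-test called 9811 before and 4344 after Benjamini-Hochberg adjustment, Tukey's test 3713 and 137, and limma 6867 at an unadjusted p below 0.05. Leaving out single arrays gave 187 to 4518. Quantile normalization left 53.7% higher. With the replicate block the count was 2066 and 9 of 110 named genes lost their call, and the block changed no count of probes by over 1.5 times. Replicate differences correlated at 0.080 between siCONT and siCONT + TSA, whose arrays share only a number, and at 0.47 between the siUHRF1 groups, where the number is the siRNA and pairs the arrays.

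For TSA in siUHRF1 cells the 3671 probes became 799 after normexp, 1902 under spike-in scaling, 1890 with no filter, 1136 over 2-fold, 7943 with the siRNA term, 3302 with the replicate block, 7748 at an unadjusted p, and 1543 to 6336 without single arrays. The methods' t-test called 3350 and 1, and Tukey's test 4266 and 407. For the difference of the effects the 90 probes became 6 after normexp, 0 with only probes above background on all 8 arrays, 1 with a trended and robust prior, 71 with the replicate block, 1166 at an unadjusted p, and 91 to 207 without single arrays.

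Signs turned after normexp for CYP4F29P (0.087), BCL2 (0.061), UHRF1 (-0.053), GAPDH (-0.148), GATA4 (0.15), CDKN2A (0.25) and SOCS1 (0.34), under spike-in scaling for UHRF1 (-0.0083), GAPDH (-0.11) and RUNX3 (-0.0075), and under quantile normalization for GAPDH (-0.080) and RUNX3 (-0.013). With single arrays left out CDKN2A ran from -0.22 to 0.14 (0.065 without siCONT replicate 2) and CRABP1 from -0.0066 (without siCONT replicate 2) to 1.65. The causes were not tested. The slide as a block was not run, since there was 1 slide.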
